A study of Homo sapiens with 24 samples.

Results

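The NRF2 oxidative stress genes are 9 genes of the KEAP1 and NRF2 pathway, chosen by name: NFE2L2, KEAP1, NQO1, GCLM, GCLC, SRXN1, TXNRD1, SLC7A11 and OSGIN1. All 9 were found among the 20345 Ensembl gene IDs of the count table. RNA was sequenced from cells that the labels and methods name as A2058, an established human melanoma line, although the study's text in a place names A375, another melanoma line, for these translation efficiencies. The cells were transfected with 20 nM, per the methods, of a control siRNA (siCTRL) or of one that targets LSM14A (siLSM14A). The cells were left untreated (NT) or received hydroxyurea (HU), given in the methods as 10 mM for 2 h. Each of the 4 conditions, siCTRL NT, siCTRL HU, siLSM14A NT and siLSM14A HU, had 3 total RNA libraries and 3 polysomal ones, 24 in all. The polysomal fraction is the heavy polysomes of a gradient, which hold mRNAs bound by many ribosomes. A total and a polysomal library with the same condition and number were taken as 1 culture, which the labels do not state. Their deviations from the group means correlated at -0.305 to 0.238 across genes, so ratios by culture rest on the numbers alone, while the tests do not pair the fractions. The labels do not say whether the replicates were separate cultures, so p-values measure only the spread between these samples. HU inhibits ribonucleotide reductase and so starves replication of deoxynucleotides, and LSM14A is an RNA-binding protein of cytoplasmic mRNA granules. The comparisons asked what HU and the loss of LSM14A did to mRNA levels and to their loading on polysomes.

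NRF2 is a transcription factor that drives the antioxidant and detoxification genes of most tissues. KEAP1 holds it in the cytoplasm and hands it to a CUL3 ubiquitin ligase for degradation, until electrophiles or oxidants modify KEAP1 and NRF2 accumulates. NRF2 then pairs with small MAF proteins and binds antioxidant response elements near its target genes. Because control is largely at the level of NRF2 protein, the mRNAs of the target genes are the usual readout of the pathway. In melanoma, as in other tumours, the pathway supports growth under oxidative stress, and SLC7A11 supplies the cystine for it.

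The regulators are NFE2L2, which encodes NRF2 (ENSG00000116044, hg19 chr2:178083395-178257484, minus strand), and KEAP1 (ENSG00000079999, chr19:10596801-10614234, minus strand). The glutathione genes are GCLC and GCLM, the catalytic and modifier subunits of glutamate-cysteine ligase, and SLC7A11, the cystine importer. GCLC (ENSG00000001084) lies at chr6:53362139-53481768, GCLM (ENSG00000023909) at chr1:94350755-94375012 and SLC7A11 (ENSG00000151012) at chr4:139085251-139163503, all on the minus strand. TXNRD1, cytosolic thioredoxin reductase (ENSG00000198431, chr12:104609557-104744085, plus strand), and SRXN1, which repairs over-oxidised peroxiredoxins (ENSG00000271303, chr20:627259-633844, minus strand), serve the thioredoxin system. NQO1, a quinone reductase (ENSG00000181019, chr16:69740899-69760571, minus strand), and OSGIN1, an oxidative stress-induced growth inhibitor (ENSG00000140961, chr16:83964916-83999937, plus strand), complete the set.

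The core of the antioxidant response element, TGACNNNGC, was searched on both strands of RefSeq promoters (GRCh38.p14), from 250 bases before to 50 bases after each start. It is shown because this is the sequence through which NRF2 is known to reach its targets. The table lists 11 promoters for 8 of the members, of which 4 promoters of 3 members had a match, against 13.3% of all 35116 promoters. The matches were in KEAP1, GCLM and TXNRD1, and are printed 5′ to 3′ on the strand that reads TGAC, with the core in capitals:
KEAP1, chr19:10502807-10502835, minus strand: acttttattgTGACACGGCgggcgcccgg
KEAP1, chr19:10502784-10502812, plus strand: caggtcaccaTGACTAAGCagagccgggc
GCLM, chr1:93909446-93909474, plus strand: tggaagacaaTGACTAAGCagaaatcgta
TXNRD1, chr12:104215670-104215698, plus strand: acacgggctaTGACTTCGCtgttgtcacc
TXNRD1, chr12:104215761-104215789, minus strand: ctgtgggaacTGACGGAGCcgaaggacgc
TXNRD1, chr12:104286920-104286948, minus strand: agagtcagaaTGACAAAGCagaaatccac
Each match is a description of letters in this window. Binding of NRF2 was not measured.

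Library depth ran from 24789280 to 40645263 counts in total RNA and from 28776634 to 44897501 in polysomal RNA. LSM14A itself checked the labels: its log2 change with siLSM14A in total RNA was -3.49 in untreated cells and -3.67 upon HU, and -4.38 and -3.95 in polysomal RNA. In the 9 melanocyte lineage markers, levels were all above 1 count per 10 to the power of 6 (CPM), led by DCT at a median of 781 CPM and SOX10 at 605 CPM, whereas MLANA and TYRP1 were low at 7.97 and 4.74 CPM. Of 8 markers of keratinocytes, fibroblasts, leukocytes and endothelium in the table, 4 passed 1 CPM, with LUM highest at 36.5 CPM. The summed level of these 8 was 36.4 to 48.4 CPM, with overlapping ranges in all 4 conditions, and KRT5 and CD3E had a median of 0.

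In total RNA, the members lay in a wide range of levels. Across the 12 total libraries SRXN1 varied 8.75-fold, and the other members at most 1.58-fold (OSGIN1). Per kilobase of the canonical transcript, NQO1 was the most abundant, with a median level of 427 CPM per kb over the 12 total libraries. TXNRD1 followed at 130 CPM per kb and NFE2L2 at 66.1 CPM per kb, and the ranges of these 3 genes were separate from each other and from the rest. OSGIN1 at 19.9 and KEAP1 at 15.5 CPM per kb had overlapping ranges, as had SLC7A11 at 11.1, GCLC at 9.90 and GCLM at 8.83 CPM per kb between neighbours. SRXN1 was lowest, at 0.88 CPM per kb of its whole transcript. Where the length of all annotated exons replaced the canonical transcript, NFE2L2 was at 10.8 CPM per kb, below KEAP1 at 11.1. OSGIN1 was then at 6.87, below KEAP1 and below GCLM at 7.95, and GCLC at 4.35 was below GCLM. The order of the members between TXNRD1 and SRXN1 thus rests on the transcript chosen.

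**Figure D1:**
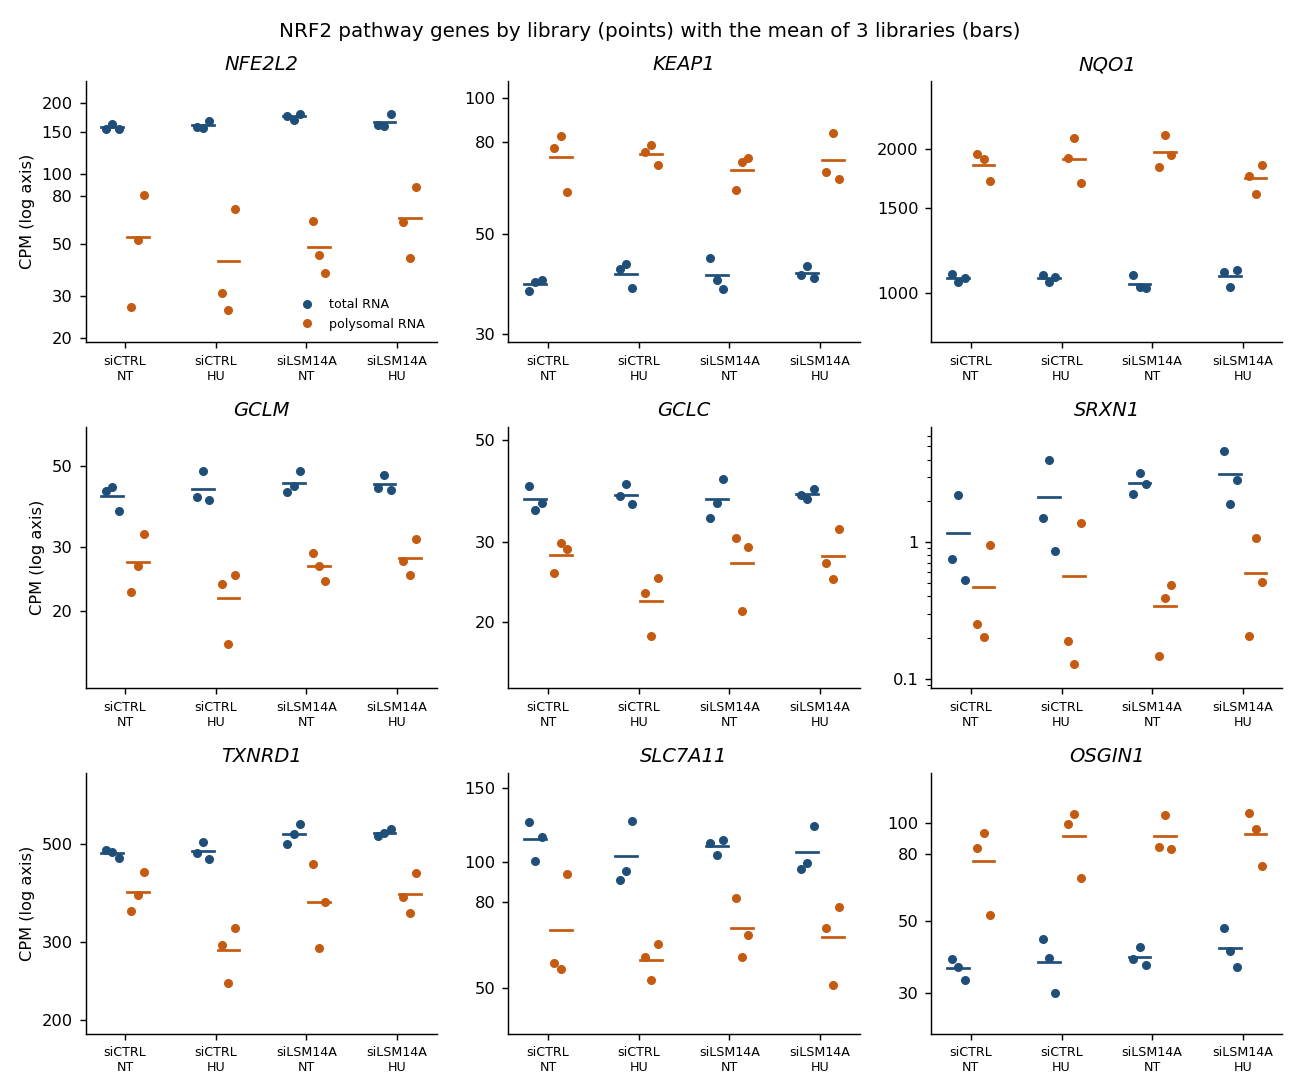
Level of each of the 9 genes in CPM (log axis) by condition. Points are libraries, drawn left to right as replicates 1 to 3, blue for total and orange for polysomal RNA, and bars are means of 3. The polysomal points of KEAP1, NQO1 and OSGIN1 lie above the total points, those of NFE2L2, GCLM, GCLC, TXNRD1 and SLC7A11 lie below them, and NFE2L2 spreads from 26.4 to 87.7 CPM in polysomal RNA.

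The values of SRXN1 are uncertain for a reason in the annotation. Of the 2528 bases of its canonical transcript, 2292 (90.7%) are also exons of another gene on the same strand (ENSG00000270299), which held 0 counts in all 24 libraries. The methods name STAR for the counts but do not say how reads in both genes were treated, so the level may be too low. Per kilobase of the 236 unshared bases, a length chosen after seeing the data, the median was 9.42 CPM, between those of GCLC and GCLM. SRXN1 held 18 to 154 counts in total RNA and 4 to 38 in polysomal RNA. The canonical transcripts of the other 8 members share no base with another gene on their strand. Over all annotated exons, however, NFE2L2 shares 13.6% of its bases in this way, OSGIN1 8.22% and GCLC 6.14%.

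Polysomal over total RNA split the members into 2 groups. OSGIN1, KEAP1 and NQO1 were higher in polysomal RNA, while NFE2L2, SRXN1, GCLM, SLC7A11, GCLC and TXNRD1 were lower. Over the 24 libraries, all 9 differed at an adjusted p under 0.05 by edgeR's quasi-likelihood test, 3 higher and 6 lower. So did 84.4% of the 12855 genes tested, 40.2% higher and 44.2% lower, so this count says nothing particular about the members. The ratio is relative to the average mRNA, whose own value is set by the normalization, and the median of all genes was -0.06 on the log2 scale.

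NQO1 had a total level of 1023 CPM at the lowest, 1077 at the median and 1117 at the highest, and a polysomal level of 1605, 1873 and 2133 CPM. Its log2 ratio of polysomal to total RNA was 0.80 (SE 0.05, edgeR adjusted p = 6.69e-13). OSGIN1 went from 30.02, 38.2 and 47.6 CPM (lowest, median, highest) in total RNA to 52.2, 88.9 and 107 CPM in polysomal RNA. With a log2 ratio of 1.19 (SE 0.10, edgeR adjusted p = 1.61e-10) it stood highest of the members, at the 94.5th percentile of genes tested. KEAP1 rose from 37.4, 39.7 and 44.1 CPM in total RNA to 61.8, 72.7 and 83.7 CPM in polysomal RNA, a log2 ratio of 0.86 (SE 0.06, edgeR adjusted p = 3.26e-12). These 3 genes had a log2 ratio above 0 in 12 of 12 cultures. How many of all genes reached such a count was not computed, and 84.4% were called in this contrast.

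NFE2L2 was the opposite. Its mRNA was at 155 CPM at the lowest, 162 at the median and 180 at the highest in total RNA, but at 26.4, 48.6 and 87.7 CPM in polysomal RNA. The log2 ratio was -1.67 (SE 0.16, edgeR adjusted p = 2.32e-09), at the 2.97th percentile of genes tested. SRXN1 lay lower still, at -2.21 (SE 0.37, edgeR adjusted p = 9.72e-06), on the few counts given above and with a ratio above 0 in 2 of 12 cultures.

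The glutathione genes were moderately lower in polysomal RNA. GCLM had a log2 ratio of -0.76 (SE 0.07), SLC7A11 of -0.72 (SE 0.09) and GCLC of -0.52 (SE 0.07), with edgeR adjusted p from 2.36e-09 to 2.1e-07. TXNRD1, the thioredoxin reductase, was at -0.50 (SE 0.06, edgeR adjusted p = 1.74e-07). All 4, like NFE2L2, were below 0 in 12 of 12 cultures, a count whose share over all genes was not computed. In the order of median ratios, only NQO1 and TXNRD1 were neighbours whose ranges over cultures did not overlap.

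**Figure D2:**
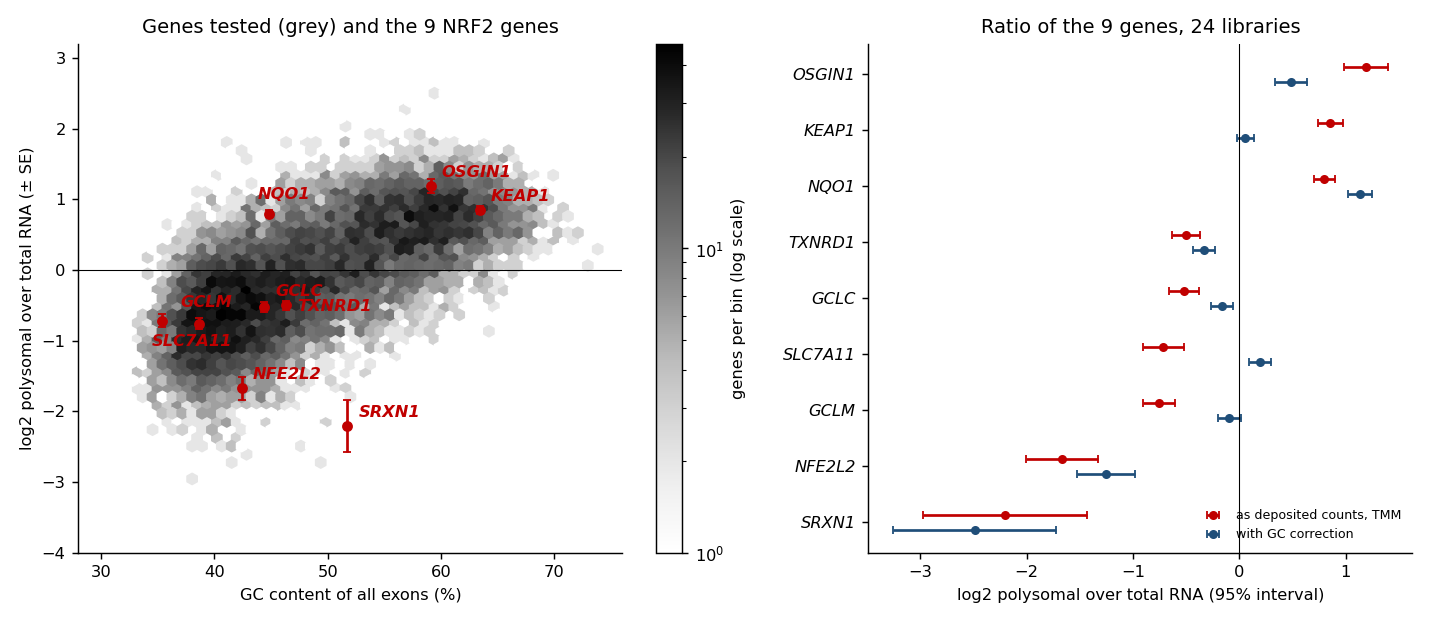
Left, log2 ratio of polysomal to total RNA against the GC content of all exons for 12855 genes (grey, darker where genes are denser) and the 9 members (red, ± SE). Right, the ratio of each member with its 95% interval, without and with GC correction. NFE2L2 stays below 0 and NQO1 above 0 in both, whereas KEAP1 and GCLM move to near 0 and SLC7A11 to 0.19.

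The ratio moved with base composition. Across genes, which are not independent replicates, Spearman's correlation of the log2 ratio with exon GC content was 0.67. Of genes with a GC content under 45%, 75.7% were lower and 10.9% higher in polysomal RNA at an adjusted p under 0.05, and of those over 55%, 78.4% were higher. KEAP1 (63.4% GC) and OSGIN1 (59.1%) were among the GC-rich genes, and SLC7A11 (35.4%), GCLM (38.6%), NFE2L2 (42.4%) and GCLC (44.4%) among the GC-poor. NQO1, at 44.8% GC and so just under the 45% limit, was among the 10.9% of genes below it that were higher.

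A correction that removed each library's trend with GC content, with which 78.4% of genes were called, separated the members. NFE2L2 stayed low, with a log2 ratio of -1.25 (SE 0.13, edgeR adjusted p = 1.18e-08, 3.66th percentile). NQO1 became the most enriched member, at 1.14 (SE 0.05, edgeR adjusted p = 3.37e-14, 97.3rd percentile), and OSGIN1 remained higher at 0.49 (SE 0.07, edgeR adjusted p = 1.88e-06). KEAP1 was then at 0.06 (SE 0.04, edgeR adjusted p = 0.192) and GCLM at -0.09 (SE 0.05, edgeR adjusted p = 0.109), so neither passed the test. SLC7A11 changed sign, to 0.19 (SE 0.05, edgeR adjusted p = 0.00116). GCLC at -0.17, TXNRD1 at -0.33 and SRXN1 at -2.49 kept their direction. Using the GC content of the canonical transcript, an alternative chosen after seeing the data, NFE2L2 was at -1.20, NQO1 at 1.18, OSGIN1 at 0.38, KEAP1 at 0.12 (edgeR adjusted p = 0.00635), GCLM at 0.03 (edgeR adjusted p = 0.657), SLC7A11 at 0.22 and TXNRD1 at -0.12. Whether the trend with GC content comes from ribosome loading or from the preparation of the libraries was not tested.

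The polysomal level of NFE2L2 spread widely. The level varied 1.16-fold across the 12 total libraries but 3.33-fold across the 12 polysomal libraries. In polysomal RNA it was at 27.01, 52.3 and 81.1 CPM in siCTRL NT and at 30.9, 26.4 and 70.7 CPM in siCTRL HU. In siLSM14A NT it was at 63.1, 44.9 and 37.9 CPM, and in siLSM14A HU at 62.1, 43.9 and 87.7 CPM. High and low libraries occurred in every condition, and the ranges of all 4 overlapped. The SD of its log2 ratio within conditions was 0.60, against 0.13 for NQO1, 0.18 for KEAP1, 0.21 for OSGIN1, 0.25 for GCLC and TXNRD1, 0.28 for SLC7A11, 0.34 for GCLM and 1.82 for SRXN1. Whether these SDs differ was not tested.

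The trend with GC content differed between polysomal libraries, from -0.28 to 0.24 log2 units per 10 points of GC, against -0.11 to 0.06 in total RNA. The 3 polysomal libraries with the most negative trend were siCTRL NT replicate 3 (-0.28), siLSM14A NT replicate 1 (-0.28) and siLSM14A HU replicate 3 (-0.21), and the most positive was siCTRL HU replicate 2 (0.24). NFE2L2 was highest of its condition in each of the former and lowest over all libraries in the latter. With GC correction the SD of its log2 ratio was 0.50, that of KEAP1 0.09, of SLC7A11 0.14, of OSGIN1 0.16 and of GCLM 0.21. NQO1 went the other way, to 0.20.

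**Figure D3:**
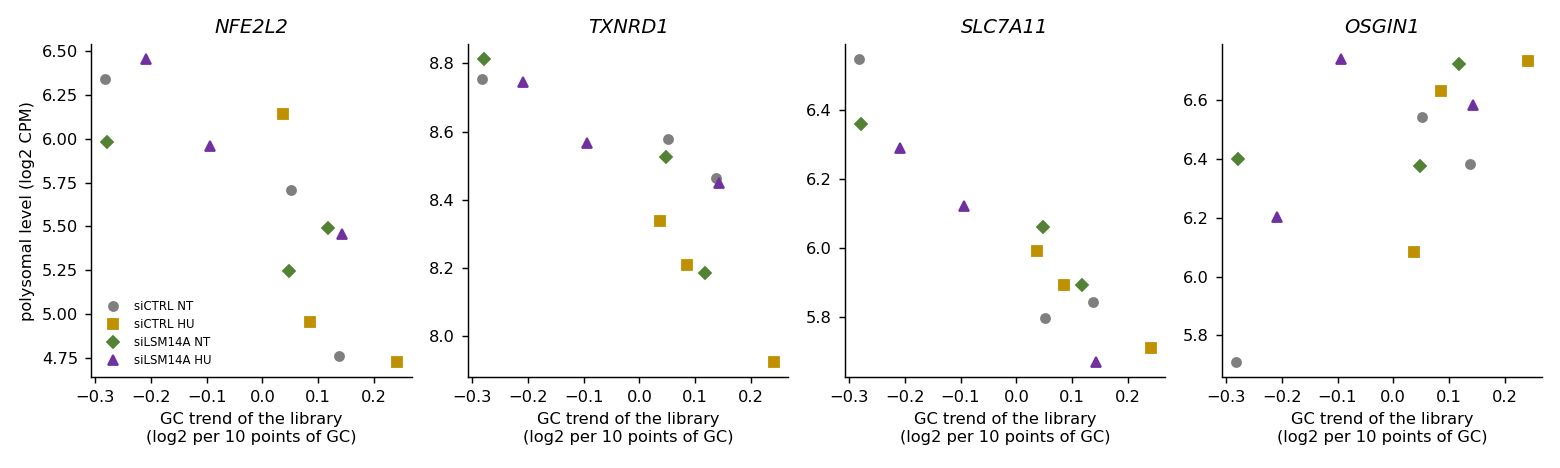
Polysomal level (log2 CPM) of NFE2L2, TXNRD1, SLC7A11 and OSGIN1 in the 12 polysomal libraries against each library's trend with GC content (log2 units per 10 points), by condition. The 3 libraries at -0.28 to -0.21 have high levels of NFE2L2, TXNRD1 and SLC7A11, and the library at 0.24 has the lowest level of NFE2L2 and TXNRD1.

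Knockdown of LSM14A in untreated cells left the total RNA of the members other than SRXN1 near its control level. By edgeR, 0 of 9 members passed an adjusted p under 0.05, against 0.566% of 12544 genes tested, and 3 had an unadjusted p under 0.05, against 10.8% of genes. The same 3 genes, NFE2L2, TXNRD1 and SRXN1, were higher in every siLSM14A NT library than in every siCTRL NT library, as were 9.15% of genes. Over the 15 comparisons other than polysomal against total RNA, DESeq2 also called 0 of the 132 member values to which it gave an adjusted p. In these bulk libraries, more RNA per cell and more cells that carry it cannot be told apart.

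NFE2L2 was at 155, 162 and 155 CPM with siCTRL and at 176, 169 and 180 CPM with siLSM14A. The log2 change was 0.15 (SE 0.05, edgeR adjusted p = 0.299). TXNRD1 was at 484, 478 and 463 CPM with siCTRL and at 498, 526 and 555 CPM with siLSM14A, a log2 change of 0.15 (SE 0.05, edgeR adjusted p = 0.362). SRXN1 was at 0.75, 2.19 and 0.53 CPM with siCTRL and at 2.25, 3.19 and 2.67 CPM with siLSM14A, a log2 change of 1.17 (SE 0.39, edgeR adjusted p = 0.311). This value depended on single siCTRL NT libraries. Without replicate 2, the highest of them, it was larger, at 2.10 (SE 0.28, edgeR adjusted p = 0.013), and without replicate 3 it was 0.82. The remaining 6 lay between -0.05 for SLC7A11 and 0.12 for GCLM, and without SRXN1 the 95% intervals of the members ran from -0.22 to 0.29.

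Upon HU, the members other than SRXN1 in siLSM14A cells again lay close to their levels in siCTRL cells in total RNA. By edgeR, 0 of 9 members passed, against 0.802% of 12475 genes, and 1 had an unadjusted p under 0.05, against 8.54% of genes. This was TXNRD1, at 477, 504 and 461 CPM with siCTRL and 519, 529 and 538 CPM with siLSM14A. All 3 siLSM14A libraries were above the siCTRL libraries, as for 8.55% of genes. The log2 change was 0.13 (SE 0.05, edgeR adjusted p = 0.467). NFE2L2 was at 0.05 (SE 0.06), and without SRXN1 the 95% intervals ran from -0.23 to 0.41. SRXN1 was at 0.57, with an interval from -0.38 to 1.51. These fits had no replicate block. With the replicate number as a block the members also stayed uncalled, where 6.85% of genes were called. The summed level of 4 markers of dedifferentiated melanoma was 233 to 265 CPM in siLSM14A HU and 208 to 219 CPM in siCTRL HU. Nearly all of it was AXL and NGFR, with a median of 0 for EGFR. In untreated cells the ranges overlapped, at 214 to 252 CPM with siLSM14A and 201 to 216 CPM with siCTRL. Neither these differences nor their part in the members' values was tested.

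A response of the members to HU was not detectable in total RNA. In siCTRL cells, 0 of 9 members passed an adjusted p under 0.05 by edgeR and 0 an unadjusted one, against 0% and 1.44% of 12506 genes. The target gene NQO1 was at 1093, 1051 and 1073 CPM in NT and at 1092, 1056 and 1080 CPM in HU, a log2 change of 0.01 (SE 0.05). Without SRXN1, the 95% intervals of the log2 changes ran from -0.36 (SLC7A11) to 0.31 (OSGIN1), so larger changes of these 8 mRNAs lie outside the intervals. SRXN1 was at 0.80 with an interval from -0.39 to 1.98, which leaves its response undetermined. In siLSM14A cells, 0 of 9 passed either threshold, against 0% and 5.2% of 12497 genes. The intervals ran from -0.23 to 0.29 without SRXN1, and that of SRXN1 from -0.37 to 0.76. The difference between these HU responses, tested as an interaction, was called for 0 of 9 members at either threshold, against 0% and 2.9% of 12666 genes.

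In polysomal RNA the intervals were wider and 0 members were called in any comparison by edgeR. The background was 0.0162% of 12342 genes for siLSM14A NT against siCTRL NT, 0.0653% of 12256 for siLSM14A HU against siCTRL HU, and 0% for both HU comparisons and the interaction. Members at an unadjusted p under 0.05 numbered 0 in siLSM14A NT against siCTRL NT (1.96% of genes), in siLSM14A HU against siLSM14A NT (0.871%) and in the interaction (1.07%). SRXN1 did not pass the filter in siCTRL HU against siCTRL NT, which left 8 members there. In the other 2 comparisons, TXNRD1 was the only member at an unadjusted p under 0.05. It was at 353, 382 and 432 CPM in siCTRL NT and at 296, 243 and 323 CPM in siCTRL HU, a log2 change of -0.44 (SE 0.17, edgeR adjusted p = 0.933), where 2.1% of genes had such a p. In siLSM14A HU it was at 379, 349 and 429 CPM, a log2 change of 0.43 from siCTRL HU (SE 0.16, edgeR adjusted p = 0.739), where 4.99% of genes had such a p. Both comparisons use the same siCTRL HU libraries, which lay below those of the other 2 conditions without overlap. GCLC, at 25.7, 29.7 and 28.9 CPM in siCTRL NT and 23.1, 18.7 and 24.99 CPM in siCTRL HU, was also lower without overlap there, as were 4.36% of genes (log2 change -0.34, SE 0.18, edgeR adjusted p = 0.933). TXNRD1 was also the only member without overlap in siLSM14A HU against siCTRL HU, where 4.65% of genes were higher without overlap.

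Translation efficiency (TE) is the polysomal level of a gene relative to its total level, and a change of TE was tested as the difference between the changes in the polysomal and total fractions. By edgeR, 0 of 9 members passed an adjusted p under 0.05 in any of the 4 comparisons of conditions, nor did any gene tested (0% in each). Members at an unadjusted p under 0.05 numbered 0 in siLSM14A NT against siCTRL NT (0.87% of genes), in siLSM14A HU against siCTRL HU (3.85%) and in siLSM14A HU against siLSM14A NT (1.41%). TXNRD1 had a log2 TE of -0.46, -0.32 and -0.10 in siCTRL NT and of -0.69, -1.05 and -0.51 in siCTRL HU. All HU values were below all NT values, as for 3.82% of 12693 genes, and the log2 change of TE was -0.45 (SE 0.16, edgeR adjusted p = 0.956), where 2.31% of genes had an unadjusted p under 0.05. With GC correction it was -0.39 (SE 0.14). In siLSM14A cells the log2 TE of TXNRD1 was -0.15, -0.85 and -0.59 in NT and -0.45, -0.60 and -0.33 in HU, a change of 0.05 (SE 0.19). The difference between the HU responses was 0.51 (SE 0.25, edgeR adjusted p = 0.896), and 0 of 9 members passed either threshold in this interaction, against 0% and 1.9% of genes.

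NQO1 was the only member without overlap of TE between siLSM14A HU and siLSM14A NT, where 3.85% of 12660 genes were lower without overlap. Its log2 TE was 0.75, 1.05 and 0.92 in NT and 0.66, 0.64 and 0.73 in HU, and the change was -0.24 (SE 0.14, edgeR adjusted p = 1). NFE2L2 had log2 changes of TE of -0.29 (SE 0.41) and 0.55 (SE 0.42) with siLSM14A in NT and HU cells, and of -0.35 (SE 0.49) and 0.48 (SE 0.31) upon HU in siCTRL and siLSM14A cells. Over these 4 comparisons its 95% intervals reached from -1.40 to 1.45. Leaving out single cultures moved these values. The first ran from -0.60 without siCTRL NT replicate 1 to 0.16 without siCTRL NT replicate 3. The second ran from 0.31 without siLSM14A HU replicate 3 to 1.11 without siCTRL HU replicate 3. The third ran from -0.89 without siCTRL HU replicate 3 to 0.08 without siCTRL NT replicate 3. The fourth ran from 0.25 without siLSM14A HU replicate 3 to 0.71 without siLSM14A NT replicate 1.

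**Figure D4:**
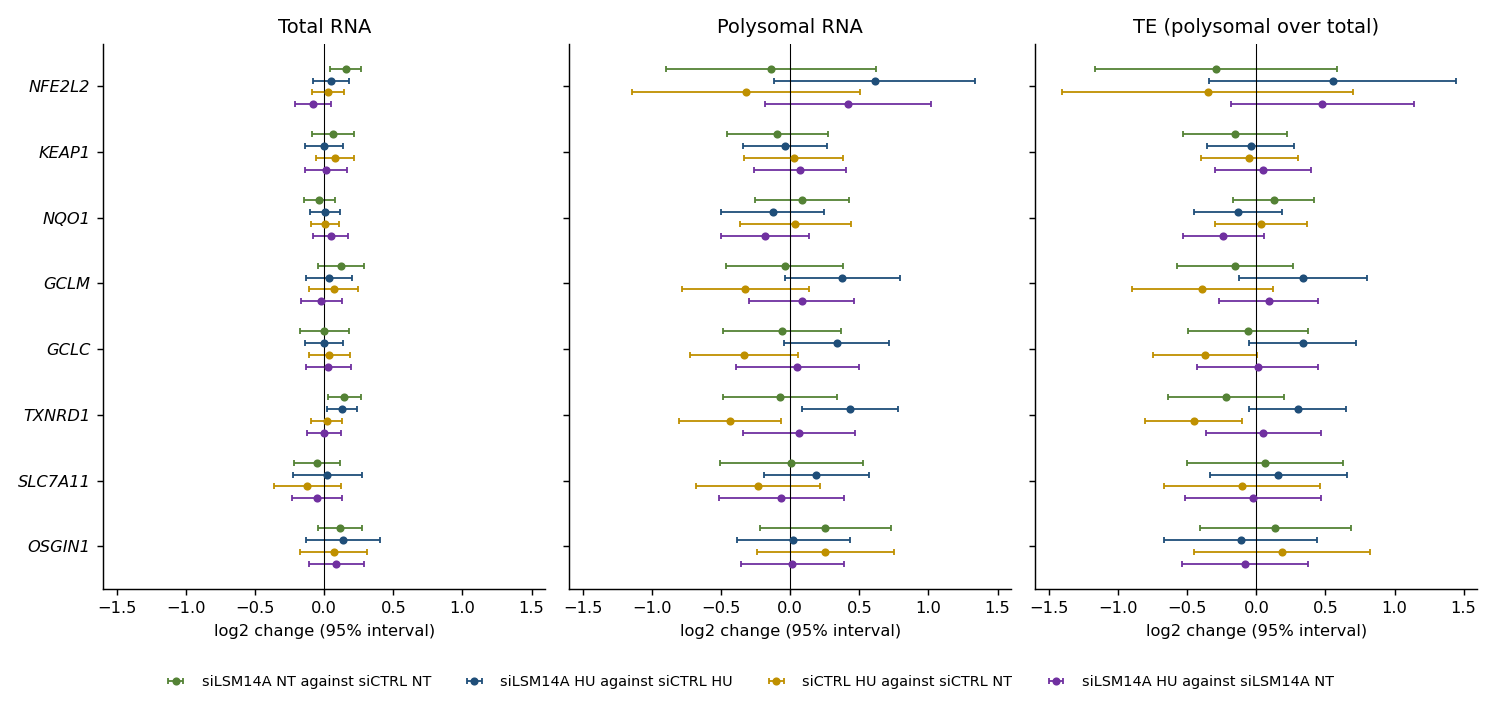
Log2 change with its 95% interval for 8 members in total RNA, polysomal RNA and TE, in 4 comparisons of conditions. SRXN1 is left out for its wide intervals. Total RNA intervals are narrow and near 0, from -0.36 to 0.41, and those of NFE2L2 in TE reach from -1.40 to 1.45.

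The wider pathway was read from 3 further lists of genes. The first holds 11 partners and regulators of NRF2, all tested. The second holds 33 other NRF2 targets, of which 29 or 30 passed the filter in a comparison. The third holds 18 other oxidant defence genes, of which 17 were in the table and tested. By edgeR, 0 genes of the 3 lists passed an adjusted p under 0.05 in any of the comparisons between conditions, where at most 0.802% of genes passed. In total RNA of untreated cells, siLSM14A against siCTRL, the median log2 change was 0.10 for the regulators, -0.03 for the other targets and -0.01 for the oxidant defence genes, against 0.00 for all genes tested. At an unadjusted p under 0.05, 4 regulators were higher and 1 lower, 5 other targets were higher and 1 lower, and 1 oxidant defence gene was in each direction, against 5.62% of all genes higher and 5.13% lower. Upon HU, these counts were 2 and 0, 7 and 2, and 0 and 0, against 4.26% and 4.27% of genes.

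The gene nearest to a call was HMOX1, heme oxygenase 1, a classical NRF2 target. Its total RNA was at 16.8 ± 2.06 CPM in siCTRL HU and 22.3 ± 1.55 CPM in siLSM14A HU (SD, n = 3 each). These siLSM14A libraries were all above the siCTRL ones, as for 8.55% of 12475 genes. The log2 change was 0.40 (SE 0.10, edgeR adjusted p = 0.0949), and in untreated cells it was 0.34 (SE 0.09, edgeR adjusted p = 0.174), from 16.9 ± 1.08 to 21.3 ± 2.12 CPM (SD, n = 3 each). SQSTM1, the autophagy receptor p62 that competes for KEAP1, had a log2 change of 0.20 in untreated cells (SE 0.05, edgeR adjusted p = 0.173), from 586 ± 22.5 to 674 ± 22.6 CPM (SD, n = 3 each). NFE2L3, a relative of NRF2, had a log2 change of 0.21 there (SE 0.06, edgeR adjusted p = 0.236) and SESN1, a sestrin, of 0.22 (SE 0.10, edgeR adjusted p = 0.441). ABCC4, a drug and metabolite exporter, was at -0.22 upon HU with siLSM14A (SE 0.07, edgeR adjusted p = 0.264). GLRX2, a mitochondrial glutaredoxin, was at -0.19 upon HU in siLSM14A cells (SE 0.08, edgeR adjusted p = 0.855).

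Calls in these lists depended on the test and its settings. DESeq2 called HMOX1 in siLSM14A HU against siCTRL HU (adjusted p = 0.0136), where it called 1.52% of genes, and SQSTM1 in untreated cells (adjusted p = 0.0346), where it called 1.59%. For the same comparisons, edgeR called HMOX1 without the filter on low counts (edgeR adjusted p = 0.0341, 0.887% of genes called). It called SQSTM1 with GC correction (edgeR adjusted p = 0.0403, 0.933% of genes called). In total RNA of siLSM14A HU and siCTRL HU the replicate numbers were taken to pair the cultures. The deviations of same-numbered libraries correlated at 0.176 to 0.326. The labels do not state this pairing, which was chosen from these data, and values with the block rest on it. With the replicate number as a block, edgeR called 8 genes of the lists there, of which 7 are described, against 6.85% of 12475 genes. HMOX1 rose by 0.40 (edgeR adjusted p = 9.16e-06), SQSTM1 by 0.22, CBR3, a carbonyl reductase, by 0.20, FTL, the ferritin light chain, by 0.16 and SLC3A2, the partner subunit of SLC7A11, by 0.16. ABCC4 fell by 0.22 and ME1, malic enzyme, fell by 0.19 on the log2 scale. With block and GC correction together, where 5.05% of genes were called, only SQSTM1, HMOX1, ME1 and ABCC4 of the lists were called, so the calls of CBR3, FTL and SLC3A2 rest on the fit without GC correction. The 9 members remained uncalled in this comparison with the block.

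In polysomal over total RNA, most list genes were called, as were most genes, of which 40.2% were higher and 44.2% lower. Of the 30 other NRF2 targets tested, 22 were higher and 5 lower, with a median log2 ratio of 0.81. Of the 17 oxidant defence genes, 10 were higher and 4 lower, with a median of 0.43. The 11 regulators divided evenly, 5 higher and 5 lower, with a median of 0.01. All genes had a median of -0.06. With GC correction, chosen for the lists after seeing the data, 23 other targets were higher and 4 lower (median 0.50), as were 10 and 3 oxidant defence genes (median 0.34) and 4 and 5 regulators (median -0.10), against 35.9% and 42.5% of all genes (median -0.06). The values of single genes that follow are without this correction unless it is named.

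Among the regulators, SQSTM1 (1.16, SE 0.07), MAFK (0.71), RBX1 (0.49), MAFF (0.40) and NFE2L1 (0.40) were higher. BACH1, the repressor that competes with NRF2 for its sites, was the lowest (-1.41, SE 0.11), with GSK3B at -0.65, CUL3 at -0.58, NFE2L3 at -0.52 and MAFG at -0.26. BTRC was at 0.01. With GC correction, MAFF (-0.33), NFE2L1 (-0.20) and CUL3 (0.19) were called in the opposite direction and MAFK and GSK3B were not called. BACH1 stayed low at -0.83, so that NRF2 and BACH1 mRNAs, which encode the activator and the repressor of the same elements, were both low in polysomal RNA with either scaling.

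Among the other targets, TKT at 1.44, PGD at 1.29 and TALDO1 at 1.09, enzymes of the pentose phosphate pathway, were higher. SLC3A2 was the highest (1.53, SE 0.07) and glutathione synthetase GSS was at 1.40. With GC correction SLC3A2 was at 1.15, against 0.19 for its partner SLC7A11, and GSS at 1.13, against -0.17 for GCLC and -0.09 for GCLM. The detoxification enzymes and exporters EPHX1, ABCC3, GSTP1, AKR1B1, ABCC1, GSTM3, AKR1C3, CBR3, CBR1, NQO2, PIR and AKR1B10, and HMOX1, PRDX1, GPX4 and GSR, were also higher, from 0.13 for GSR to 1.33 for EPHX1. The ferritin chains FTH1 (-0.87) and FTL (-0.27), whose mRNAs are known to carry iron-responsive elements, were lower, as were UGDH (-0.62), ABCC2 (-0.37) and ME1 (-0.36). TXN, ABCC4 and AKR1C1 did not pass the test. With GC correction, GPX4 (-0.24) and ME1 (0.27) were called in the opposite direction, CBR3 and ABCC2 were not called, and TXN (0.72) and ABCC4 (0.27) were higher.

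Among the oxidant defence genes, TXNRD2 (1.43), PRDX2 (1.18) and PRDX5 (1.09) led, followed by TXN2, SESN2, PRDX6, MSRB1, MSRA, GPX1 and SOD1. TXNRD3 (-0.68), SESN3 (-0.65), GLRX (-0.36) and GLRX2 (-0.33) were lower, and CAT, PRDX3 and SESN1 did not pass. With GC correction, SOD1 (-0.25), GPX1 (-0.37) and GLRX2 (0.50) were called in the opposite direction, SESN2, MSRB1, GLRX and SESN3 were not called, and CAT, PRDX3 and SESN1 were higher. The mitochondrial reductase TXNRD2 (0.83 with the correction) and the cytosolic TXNRD1 (-0.33 with it) lay on opposite sides of 0 with either scaling.

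**Figure D5:**
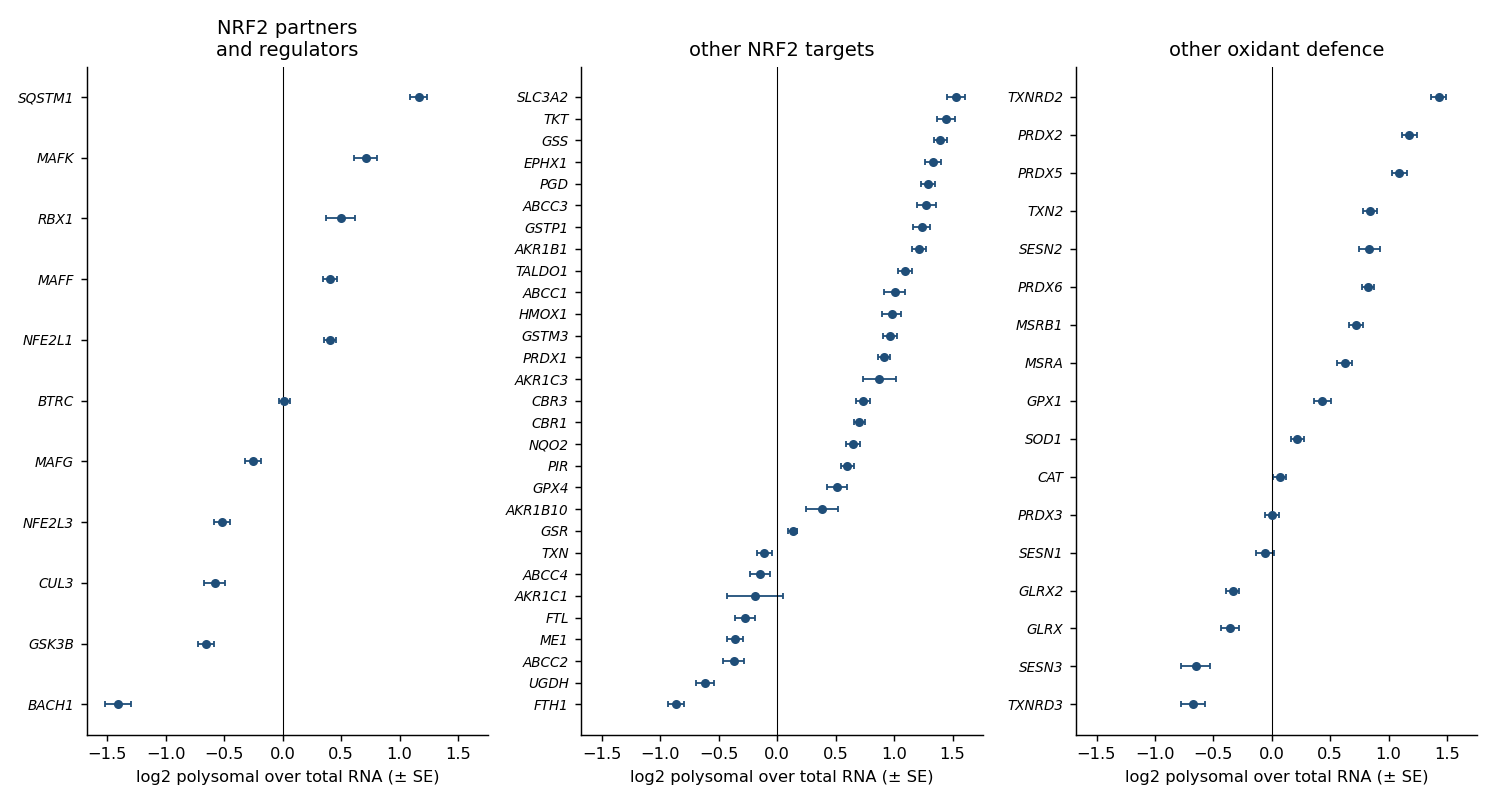
Log2 ratio of polysomal to total RNA (± SE, 24 libraries, without GC correction) of the tested genes of 3 lists, ordered within each list, with 1 of the other NRF2 targets not shown. Most of the other NRF2 targets lie above 0, from FTH1 at -0.87 to SLC3A2 at 1.53, while the regulators run from BACH1 at -1.41 to SQSTM1 at 1.16.

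Each member was also matched to the gene whose log2 CPM followed it most closely over the 24 libraries, by the root mean square difference after centring each gene. The nearest gene was USP25 for NFE2L2 (0.08 log2 units), MRPL49 for KEAP1 (0.06), UFD1 for NQO1 (0.06), CRK for GCLM (0.09), PRMT3 for GCLC (0.07), DSN1 for TXNRD1 (0.06) and TGFBR1 for SLC7A11 (0.09). For OSGIN1 it was SQSTM1 (0.11), a gene of the regulator list, and for SRXN1 it was TXNDC5 (0.67), far less close. As these patterns hold both fractions, they follow the ratio of polysomal to total RNA first: it was -1.64 for USP25 and 1.16 for SQSTM1, close to -1.67 for NFE2L2 and 1.19 for OSGIN1.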

How the data were processed

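Total and polysomal poly(A)+ RNA was sequenced with a strand-specific kit, in 12 libraries each. The authors aligned reads to hg19 with STAR 2.6.1a and deposited counts per gene without normalization. Every column was used. Of 20345 gene IDs, 19086 were protein-coding in the GENCODE annotation used here for hg19 and were eligible for tests, and 708 were not in it. This annotation is a later release than the one named in the authors' methods.

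For tests, edgeR 4.0.16 was run on the deposited counts in R 4.3.3 (quasi-likelihood F-test, TMM normalization, filterByExpr at a minimum count of 10 and total of 15), with Benjamini-Hochberg adjustment over all genes tested. Depth was 24789280 to 44897501 counts per library, and counting error weighs most on SRXN1. With 3 samples against 3, an exact permutation test cannot go below p = 0.1, so none is given. Log2 CPM used a prior count of 2. GC correction took a loess curve (span 0.3) of log2 CPM on exon GC content as offsets. The tests were checked on simulated counts. Replicate pairs (24) differed by a chi-square of 6.17 to 121 per gene, above sampling noise. Replicate numbers were taken to pair samples where all 3 same-numbered pairs had correlated deviations above 0.1: in total RNA of siLSM14A HU and siCTRL HU (0.176 to 0.326) and siCTRL HU and NT (0.183 to 0.265), in polysomal RNA of siCTRL HU and NT (0.189 to 0.457), and between the fractions of siLSM14A HU. The main tests nevertheless used no block, in these comparisons too, and values are from fits without one unless a block is named.

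A gene of the other-target list is not reported here by name, but is in the counts and medians of that list. The members, lists and tests were chosen with earlier results of these data known. Named genes were the 9 members, LSM14A, every list gene called, otherwise up to 2 genes per list with the smallest p in total RNA or TE, and the nearest gene to each member. Alternatives were DESeq2 1.42.0, RLE size factors, no filter, at least 10 counts in every library, all genes, replicate or culture blocks, GC correction, all 24 libraries in 1 fit, a prior count of 0.5 and each culture left out. SD is over 3 samples and SE is from the fit.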

Additional observations from a re-analysis of the deposited data

How the results depend on the processing

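Outside the ratio of polysomal to total RNA, the 134 results of the members had 2199 values under alternatives, of which 2 were called. SRXN1 in total RNA of untreated cells was called without siCTRL NT replicate 2 (2.10, edgeR adjusted p = 0.013), so that 1 member was called in place of 0. NFE2L2 in polysomal RNA of siLSM14A HU against siCTRL HU was called with the replicate block (0.69, SE 0.14, edgeR adjusted p = 0.0481), again 1 in place of 0, where 0.326% of genes were called. There 2 of 3 same-numbered pairs correlated above 0.1 (0.0454 to 0.405), so the numbers were not taken to pair those samples, and with block and GC correction together its edgeR adjusted p was 0.266. The replicate block changed no other call of a member. DESeq2 called 0 of the 132 member values to which it gave an adjusted p, with 8 of 134 at an unadjusted p under 0.05, and gave none to SRXN1 in 2 comparisons.

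For polysomal over total RNA, 189 of 197 alternative values kept their direction and call. KEAP1 (0.06) and GCLM (-0.09) lost their call with GC correction, with or without the block, SLC7A11 reversed to 0.19 with either and to 0.22 by canonical transcript, where GCLM was at 0.027. The correction removes each library's trend with GC content by construction. Leaving out each culture kept all 9 calls, with NFE2L2 down to -1.81 and SRXN1 between -2.74 and -1.87. SRXN1 had 4 to 38 polysomal counts, which limits its precision. The exact position of the members among genes in the ratio depends on the GC correction.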
